A study of Mus musculus with 6 samples.

Results

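Messenger RNA of 10 genes was followed across the study: the CXC chemokine genes Cxcl1, Cxcl2, Cxcl3, Cxcl5, Cxcl9, Cxcl10, Cxcl11, Cxcl14 and Cxcl16, and Csf3, which encodes granulocyte colony-stimulating factor (G-CSF). The genes were taken by symbol, whatever their level, as 10 of the 55367 gene symbols of the unfiltered count table. RNA came from cultured mouse FRCs (fibroblastic reticular cells, which form the stromal network of lymph nodes), an established line kept for 96 h in medium conditioned by other cells, with fresh medium every 48 h. In the control group the FRC line itself had conditioned the medium, and in the other groups the mouse mammary carcinoma lines 67NR or 4T1 had done so. Conditioning took 24 h in plain RPMI, which all groups received with 2% serum and antibiotics added. The labels name no genotype, and the FRCs are 1 cell line, outside the lymph node. Each group held 2 libraries. The labels do not tell whether these were separate cultures, so the p-values below measure the spread between libraries, which may be technical. Each tumour medium is measured here against medium from FRCs.

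Chemokines of the CXC family are small secreted proteins that guide leukocytes through G protein-coupled receptors. Cxcl1, Cxcl2, Cxcl3 and Cxcl5 encode ligands of CXCR2, the receptor by which neutrophils are drawn into tissue, and G-CSF drives the production of neutrophils in bone marrow and their release from it. Cxcl9, Cxcl10 and Cxcl11 encode ligands of CXCR3, found on activated T cells and natural killer cells, and are classical targets of interferon. Cxcl14 encodes a chemokine made by many resting epithelia and fibroblasts, and Cxcl16 a membrane-anchored chemokine that is shed by proteases and binds CXCR6. In fibroblastic stroma, NF-kB, its nuclear cofactor IkB-zeta and C/EBP factors are known to switch on the CXCR2 ligands and Csf3, while IRF factors act on the CXCR3 ligands.

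The CXCR2 ligand genes and the CXCR3 ligand genes occupy separate blocks of mouse chromosome 5 (GRCm38, GENCODE M21). Cxcl5 (90759360 to 90761624), Cxcl3 (90786103 to 90789600), Cxcl1 (90891241 to 90893115) and Cxcl2 (90903871 to 90905938) lie on the plus strand within 146.6 kb. Cxcl9 (92321347 to 92328079), Cxcl10 (92346638 to 92348889) and Cxcl11 (92359544 to 92365485, annotated as a polymorphic pseudogene) lie on the minus strand within 44.1 kb, with 1.42 Mb between the blocks. Cxcl14 is on chromosome 13 (56288643 to 56296551, minus strand). Cxcl16 (70453983 to 70459984, minus strand) and Csf3 (98701263 to 98703629, plus strand) are both on chromosome 11.

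RefSeq promoter windows of build GRCm38.p6, each the 250 bases before the RefSeq start of the gene, were found for 6 of the 10 genes: Cxcl1, Cxcl2, Cxcl3, Cxcl9, Cxcl10 and Cxcl14. Those of Cxcl1, Cxcl2 and Cxcl3 are shown because these neighbours differed widely in level, and that of Cxcl10 because it is the 1 interferon-induced member with counts. They read 5′ to 3′ on the gene's strand, from chr5:90890995-90891244 (plus), chr5:90903649-90903898 (plus), chr5:90785851-90786100 (plus) and chr5:92348890-92349139 (minus). Capitals mark matches to the NF-kB consensus or to the interferon-response core (GAAA, 2 bases of any kind, then GAAA), both searched on both strands.
Cxcl1: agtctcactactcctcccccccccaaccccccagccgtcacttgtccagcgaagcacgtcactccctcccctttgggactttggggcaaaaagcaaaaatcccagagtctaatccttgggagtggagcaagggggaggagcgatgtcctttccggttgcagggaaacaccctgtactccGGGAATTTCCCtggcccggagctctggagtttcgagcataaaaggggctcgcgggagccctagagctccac
Cxcl2: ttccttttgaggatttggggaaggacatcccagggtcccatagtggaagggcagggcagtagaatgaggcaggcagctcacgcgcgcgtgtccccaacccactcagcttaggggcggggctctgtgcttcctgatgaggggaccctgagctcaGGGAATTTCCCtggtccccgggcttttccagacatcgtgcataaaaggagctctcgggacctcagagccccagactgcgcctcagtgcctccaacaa
Cxcl3: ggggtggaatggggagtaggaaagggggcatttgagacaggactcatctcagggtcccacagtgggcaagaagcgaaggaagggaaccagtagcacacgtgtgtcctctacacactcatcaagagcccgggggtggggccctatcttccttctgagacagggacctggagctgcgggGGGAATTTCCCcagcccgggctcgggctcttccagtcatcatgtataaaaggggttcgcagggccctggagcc
Cxcl10: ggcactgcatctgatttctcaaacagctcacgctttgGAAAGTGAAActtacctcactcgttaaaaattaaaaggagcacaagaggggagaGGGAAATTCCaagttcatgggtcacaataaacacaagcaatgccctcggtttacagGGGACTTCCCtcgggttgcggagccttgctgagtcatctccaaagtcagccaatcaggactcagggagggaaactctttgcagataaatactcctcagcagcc
Cxcl1, Cxcl2 and Cxcl3 held the same run GGGAATTTCCC, which matches the NF-kB consensus on both strands with overlapping matches. It began 71, 97 and 73 bases before the RefSeq starts, and 67, 69 and 75 bases before the GENCODE starts given above, which differ from them. Cxcl10, whose start is the same in both annotations, held 2 NF-kB matches, GGGAAATTCC from 159 and GGGACTTCCC from 103 bases before the start, and the interferon-response core GAAAGTGAAA from 213 bases before it. Of 32851 promoter windows of this length, 3.9% held the NF-kB consensus and 2.98% the interferon-response core. In the Cxcl9 window neither motif's letters were found, and the Cxcl14 window held GAAACAGAAA. Aligned end to end with the shared run included, Cxcl1 was identical to Cxcl2 at 49.7% of columns and to Cxcl3 at 50.7%. Cxcl2 was identical to Cxcl3 at 54.7%. A match describes the letters of a window and does not show that a factor binds there.

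The libraries held between 13.6 M and 21.8 M counts (M, 1e6). Across genes, Pearson's correlation was at least 0.992 within a medium and at most 0.979 between media. Of all symbols, 26346 had a count and 15055 had enough counts to be tested. Levels are given as counts per 1e6 (CPM), in which 1 count equals 0.0463 to 0.0743 CPM depending on the library. Differences are log2 fold changes with their standard error (SE) from edgeR's quasi-likelihood fit, and p-values from that fit carry Benjamini-Hochberg adjustment over all tested genes, with a threshold of 0.05. Of the 10 genes, 3 passed the filter on low counts (Cxcl1, Cxcl5 and Cxcl16), 4 had a few counts (Cxcl2, Cxcl3, Cxcl10 and Csf3), and 3 were at 0 in all 6 libraries (Cxcl9, Cxcl11 and Cxcl14).

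In 4T1 medium the 3 tested members rose against control, and all were also higher than in 67NR medium. In 67NR medium 1 of the 3, Cxcl16, rose against control. Over all tested genes, 39.1% were called in 4T1 against control (19.9% higher and 19.2% lower), 27.6% in 67NR against control (13% higher and 14.6% lower) and 43.4% in 4T1 against 67NR (23.5% higher and 19.9% lower). These shares are the background for the list counts below, which were not tested against them. Without any 1 control or 67NR library the count for 67NR against control fell from 4150 to between 2227 and 2459. The calls of the 3 members in both comparisons of 4T1 medium held under each of the 15 alternative analyses. The 2 comparisons with control share the control libraries, so the test between the tumour media is the 4T1 against 67NR comparison.

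**Figure D1:**
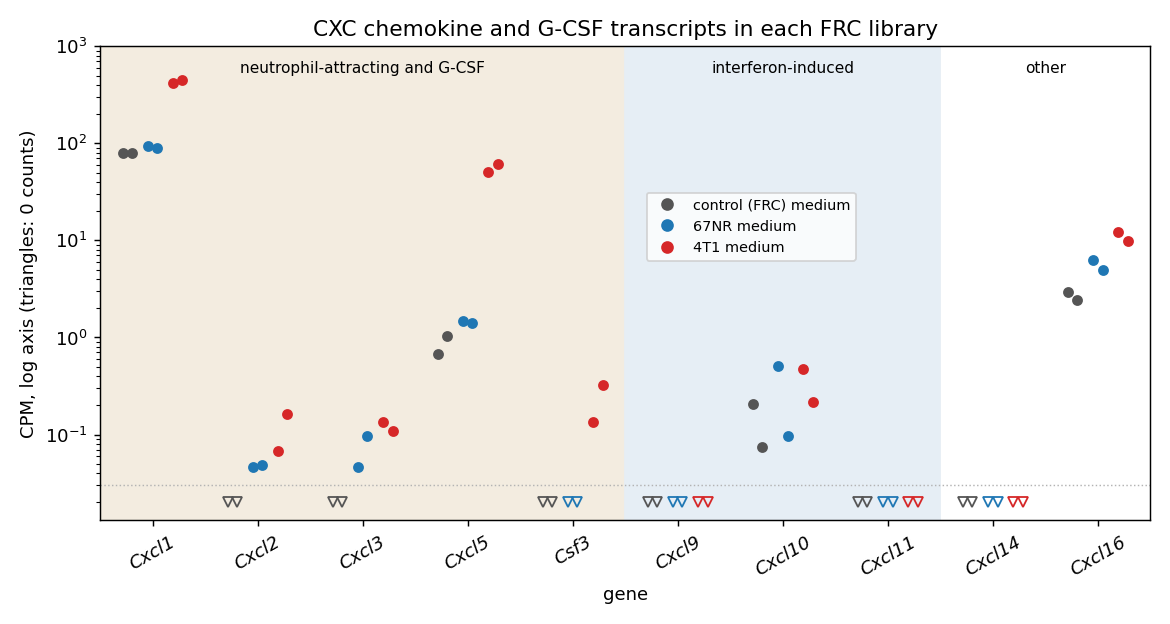
CPM of each of the 10 genes in each of the 6 libraries on a log axis, with 2 libraries per medium and open triangles for libraries at 0 counts. Cxcl1 and Cxcl5 are far higher in both 4T1 libraries than in the other 4 libraries, Cxcl16 steps up from control to 67NR to 4T1 medium, and the interferon-induced members are at or near 0 in every medium.

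Among the neutrophil-attracting members, Cxcl1 was already abundant in FRCs in control medium. Its levels in replicates 1 and 2 were 80.5 and 79.6 CPM in control medium (1550 and 1071 counts), 93.5 and 88.7 CPM in 67NR medium (2018 and 1822 counts), and 424 and 454 CPM in 4T1 medium (6267 and 8328 counts). Both 4T1 libraries stood far above the other 4, and both 67NR libraries slightly above both control libraries. The means were 80 ± 0.616, 91.1 ± 3.41 and 439 ± 21.2 CPM (SD, n = 2 each). In 4T1 medium Cxcl1 was 5.48-fold higher than in control (log2 2.45, SE 0.07, edgeR adjusted p = 2.52e-11) and 4.82-fold higher than in 67NR medium (log2 2.27, SE 0.07, edgeR adjusted p = 3.83e-11). The small difference between 67NR and control medium did not pass (log2 0.19, SE 0.07, edgeR adjusted p = 0.0595). It passed without 4T1 replicate 1 (adjusted p = 0.0181), without 4T1 replicate 2 (0.0182) and in a fit of the 67NR and control libraries alone (0.0145), while over all 15 alternatives the adjusted p ranged up to 0.363.

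Cxcl5 went from near the detection limit to a well-expressed transcript. It had 13 and 14 counts in control medium (0.675 and 1.04 CPM), 32 and 29 in 67NR medium (1.48 and 1.41 CPM), and 743 and 1120 in 4T1 medium (50.2 and 61 CPM). The 4T1 libraries were again separate from the rest by a wide margin. In 4T1 medium it was 66.9-fold higher than in control (log2 6.06, SE 0.18, edgeR adjusted p = 4.99e-11) and 38.3-fold higher than in 67NR medium (log2 5.26, SE 0.16, edgeR adjusted p = 4.16e-11). Ordered by log2 fold change in 4T1 against control, Cxcl5 was number 44 of 15055 tested genes, Cxcl1 number 241 and Cxcl16 number 322. Against control, Cxcl5 in 67NR medium differed by a log2 fold change of 0.80 (SE 0.34), which did not pass (edgeR adjusted p = 0.0986).

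The balance between these CXCR2 ligands differed in 4T1 medium. Per kb of coding transcript, pooled over the libraries of a medium, there were 160 Cxcl1 counts for each Cxcl5 count in control medium (95% counting interval 110 to 244), 104 in 67NR medium (80.8 to 136) and 12.9 in 4T1 medium (12.3 to 13.6). The raw count ratio was 119 and 76.5 in the control libraries, 63.1 and 62.8 in the 67NR libraries and 8.44 and 7.44 in the 4T1 libraries, so the media did not overlap. Cxcl1 remained the more abundant transcript of this pair in each library. Of the counts on Cxcl1, Cxcl2, Cxcl3 and Cxcl5 together, Cxcl5 took 0.832 and 1.29% in control, 1.56 and 1.56% in 67NR and 10.6 and 11.9% in 4T1 medium. Ranked by CPM per kb among tested genes, 6.53% of genes stood above Cxcl1 in control medium and 1.08% in 4T1 medium, whereas for Cxcl5 the share fell from 88.6% to 15%. Counting intervals and the limits given for 0 counts cover counting error alone.

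Cxcl2 and Cxcl3, which encode close relatives of Cxcl1, stayed at a handful of counts. Cxcl2 had 0 and 0 counts in control, 1 and 1 in 67NR medium and 1 and 3 in 4T1 medium. Cxcl3 had 0 and 0, 1 and 2, and 2 and 2. Both were thus seen in each tumour-medium library and in no control library, at levels where 3 counts over a group equal 0.0712 to 0.0917 CPM. The 4 counts of either gene in 4T1 medium were just above that limit, and with no filter on low counts neither passed (edgeR adjusted p = 0.352 for Cxcl2 and 0.333 for Cxcl3). Without that filter 23.1% of the 26346 genes with a count were called in 4T1 against control, 16.7% in 67NR against control and 25.6% in 4T1 against 67NR. Per kb, Cxcl1 outnumbered Cxcl2 7120-fold (2780 to 26100) and Cxcl3 3890-fold (1520 to 14300) in 4T1 medium. The Cxcl2 and Cxcl3 transcripts share an identical run of 157 bases, so their few reads could be assigned to either gene or left out, which makes their counts uncertain. The longest run that Cxcl1 shares with either is 23 bases.

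Csf3 was detected in 4T1 medium alone, with 2 and 6 counts, and had 0 counts in both control and both 67NR libraries. With 3 counts over the group taken as the limit for 0 counts, the 4T1 level was 2.63-fold above the control limit. It was 3.39-fold above the 67NR limit. These folds leave out the counting error of the 4T1 counts. The 95% counting interval in 4T1 medium starts at 0.104 CPM, while that in control reaches 0.113 CPM and that in 67NR medium 0.0875 CPM. With no filter on low counts the difference did not pass (edgeR adjusted p = 0.112 against control and 0.0686 against 67NR). These 8 counts, 0.241 CPM pooled (95% counting interval 0.104 to 0.475), are a detection at the edge of the depth. Of 4 other colony-stimulating factor genes listed, 3 were tested, and in 4T1 against control 2 fell and none rose. Csf1, which encodes the macrophage factor M-CSF, was at 654 ± 42.8 CPM in control, 552 ± 27.8 in 67NR medium and 586 ± 13 in 4T1 medium, and its 4T1 difference did not pass (log2 -0.16, SE 0.07, edgeR adjusted p = 0.0886). The 2 that fell were Kitl, encoding stem cell factor (log2 -0.48, SE 0.11), and Il34, the other ligand of the M-CSF receptor (log2 -1.25, SE 0.19). The Kitl call was lost without control replicate 2 (adjusted p = 0.0515), which left 1 of the 3 called. In 67NR against control Csf1 (log2 -0.24, edgeR adjusted p = 0.0184) and Il34 (log2 -0.57, edgeR adjusted p = 0.0241) fell. The Csf1 call there was lost without 67NR replicate 1 (adjusted p = 0.225), 67NR replicate 2 (0.0588) or control replicate 2 (0.189), and the Il34 call without 67NR replicate 1 (0.168), 67NR replicate 2 (0.0723) or control replicate 1 (0.185).

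The interferon-induced members were nearly silent in each medium. Cxcl9 and Cxcl11 had no count in any library, which allows at most 0.0917, 0.0712 and 0.0905 CPM in control, 67NR and 4T1 medium at 3 counts over the group. For Cxcl11 this limit is uncertain, since the pseudogene Gm2673, also at 0, overlaps 1582 bases (41.7%) of its exons on the opposite strand, and reads there could have been left out of the counting. Cxcl10 had 4 and 1 counts in control, 11 and 2 in 67NR medium and 7 and 4 in 4T1 medium, which is 0.0743 to 0.51 CPM. The 67NR libraries overlapped with both other groups, and the lower 4T1 library (0.218 CPM) was next to the higher control library (0.208 CPM). Pooled, its level in 4T1 medium was 2.17 times that in control (95% counting interval 0.695 to 7.97) and 1.08 times that in 67NR medium (0.436 to 2.6). With no filter on low counts, edgeR's adjusted p for Cxcl10 was 0.522 in 4T1 against control, 0.636 in 67NR against control and 0.986 in 4T1 against 67NR. Any change of Cxcl10 was not detectable at this depth. Per kb, Cxcl1 stood 836-fold above Cxcl10 in control (358 to 2580), 471-fold in 67NR (275 to 886) and 2120-fold in 4T1 medium (1180 to 4240).

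Most other listed interferon-induced genes were expressed and did move, above all in 67NR medium. Of 16 listed beside the members, 14 were tested. In 67NR against control 14 rose (median log2 2.73, against 0.00 over all tested genes), in 4T1 against control 10 rose and 1 fell (median 1.31, against 0.01), and in 4T1 against 67NR 12 fell and none rose (median -1.44, against 0.03). Ifit3, an antiviral protein of the IFIT family, was at 14.6 ± 1.36 CPM in control, 93 ± 19.1 in 67NR medium and 17.2 ± 6.59 in 4T1 medium, a fall of log2 -2.45 (SE 0.19) from 67NR to 4T1. Ifit1 was at 7.97 ± 0.92, 90.7 ± 18.3 and 26.3 ± 13 CPM. Mx1, a dynamin-like antiviral GTPase, had 0 and 1 counts in control, 40 and 21 in 67NR medium and 2 and 0 in 4T1 medium. Mx1 and Rsad2 passed the filter on low counts through 67NR medium alone. Their calls among the 14 that rose and the 12 that fell were therefore partly fixed by that filter. Irgm1, an interferon-induced GTPase, rose in 67NR medium (log2 0.53, SE 0.08) and fell in 4T1 medium (log2 -0.43, SE 0.08). Rsad2, which encodes the antiviral enzyme viperin, rose in 67NR against control by log2 2.80 (SE 0.74), and that call was lost without 67NR replicate 1 (adjusted p = 0.101) and without control replicate 1 (0.166). Thus Cxcl9, Cxcl10 and Cxcl11 were at or near 0, whereas tested genes of the interferon list had means of up to 95.4 CPM. That mean was of Irgm1 in 67NR medium, which was already at 65.9 CPM in control. Levels near 0 were not particular to the chemokines, since the untested list genes Gbp4 and Gbp5 were near 0 too. Gbp4 had 0 and 0 counts in control, 2 and 0 in 67NR medium and 0 and 2 in 4T1 medium. Gbp5 had 0 and 1, 5 and 3, and 1 and 3.

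Cxcl14 had no count in any library, with the same limits as Cxcl9. Cxcl16 rose in both tumour media. It was at 2.91 and 2.45 CPM in control (56 and 33 counts), 6.35 and 4.91 in 67NR (137 and 101 counts), and 12.2 and 9.91 in 4T1 medium (181 and 182 counts). The 3 media did not overlap and were ordered control, 67NR, 4T1, with means of 2.68 ± 0.322, 5.63 ± 1.01 and 11.1 ± 1.64 CPM (SD, n = 2 each). Each step passed: 67NR was 2.08-fold above control (log2 1.05, SE 0.21, edgeR adjusted p = 0.00246), 4T1 was 1.95-fold above 67NR (log2 0.96, SE 0.17, adjusted p = 0.000423) and 4.05-fold above control (log2 2.02, SE 0.20, adjusted p = 3.83e-06). Per kb, Cxcl5 lay under Cxcl16 in control medium (ratio 0.52, 0.325 to 0.808) and in 67NR medium (0.439, 0.326 to 0.584) and above it in 4T1 medium (8.79, 7.86 to 9.87). On the opposite strand Zmynd15 overlaps 552 bases, or 18.3%, of the Cxcl16 exons. Zmynd15 itself had 4 and 0 counts in control, 18 and 11 in 67NR medium and 25 and 28 in 4T1 medium, and since the strand setting of the counting is not given in the sources used here, reads of this pair cannot be told apart where they overlap.

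Per kb, Cxcl1 had the highest level of the 10 genes in each medium, while Cxcl5 and Cxcl16 exchanged places. In control medium Cxcl1 was at 84 ± 0.647 CPM per kb, Cxcl16 at 0.993 ± 0.119 and Cxcl5 at 0.545 ± 0.164. In 4T1 medium the same values were 460 ± 22.3 for Cxcl1, 35.3 ± 4.84 for Cxcl5 and 4.1 ± 0.608 for Cxcl16. Below them in 4T1 medium came Cxcl10 (0.227 ± 0.119), Csf3 (0.163 ± 0.0959), Cxcl3 (0.12 ± 0.0183) and Cxcl2 (0.0621 ± 0.0364). The libraries of Cxcl10, Csf3 and Cxcl3 overlapped in this order, and Cxcl2 and Cxcl3 had 4 counts each.

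The genes around the CXCR2 ligands did not respond as a block. Within 200 kb of either end of the Cxcl5 to Cxcl2 interval lie 11 genes, of which 8 were tested. In 4T1 against control 5 rose (Cxcl5, Ppbp, Cxcl1, Mthfd2l and Ereg) and 2 fell (Cxcl15 and Rassf6). The Rassf6 call was lost without control replicate 2 (log2 -0.37, adjusted p = 0.0701). Cxcl15, the gene of the chemokine lungkine between Cxcl3 and Cxcl1, fell from 8.24 ± 0.0928 CPM in control to 1.27 ± 0.492 in 4T1 medium (log2 -2.73, SE 0.22, edgeR adjusted p = 6.96e-07). In 67NR medium it was at 11.1 ± 0.554 CPM. Ppbp, encoding the precursor of another CXCR2 ligand, and Pf4, encoding platelet factor 4, lie between Cxcl5 and Cxcl3. Ppbp rose in both tumour media, from 4.51 ± 0.353 CPM to 11.7 ± 1.04 in 67NR medium and 13.1 ± 0.883 in 4T1 medium, and the difference between these media did not pass (log2 0.16, SE 0.12). Pf4 rose in 67NR medium, from 0.661 ± 0.0935 to 3.8 ± 0.132 CPM (log2 2.49, SE 0.29), and at 1.07 ± 0.206 CPM in 4T1 medium its difference from control did not pass (log2 0.65, SE 0.38). Downstream of Cxcl2, Ereg, which encodes the growth factor epiregulin, rose from 37.3 ± 1.19 to 66.2 ± 4.56 CPM in 4T1 medium (log2 0.83). Cxcl12, the homeostatic CXC chemokine of stromal cells, which lies elsewhere in the genome, was at 6292 ± 288, 6748 ± 80.7 and 6005 ± 197 CPM and passed in no comparison.

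**Figure D2:**
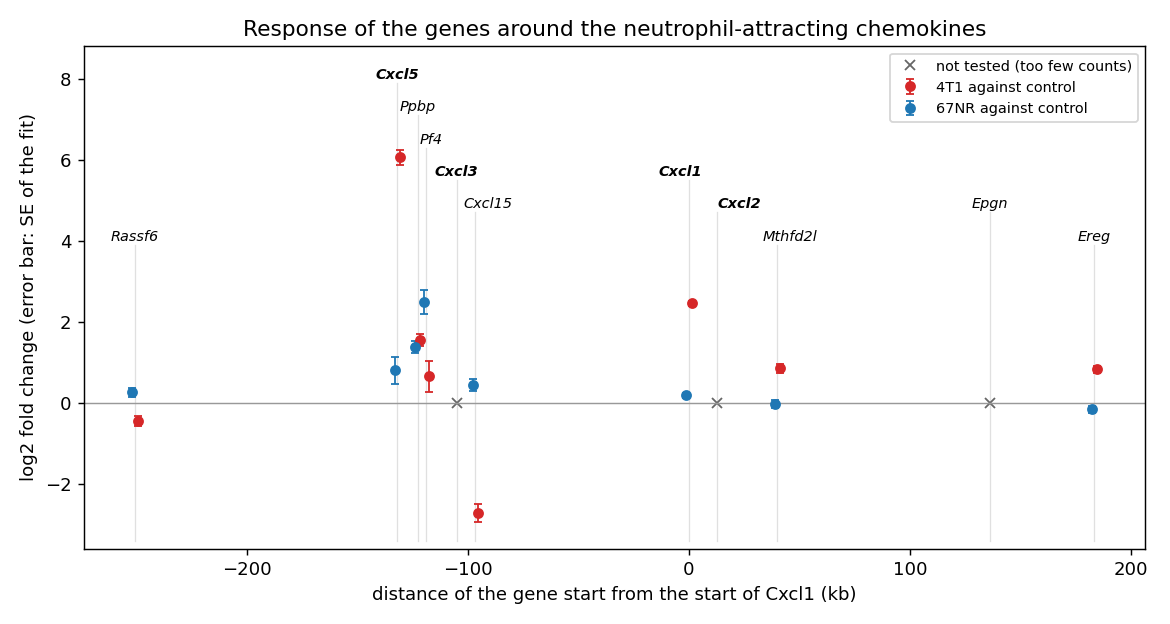
Log2 fold change of each gene within 200 kb of the CXCR2 ligand block, with the fit's SE, against the distance of the gene's start from the start of Cxcl1 in kb, for 4T1 and 67NR medium against control. Cxcl5 (6.06) and Cxcl1 (2.45) rise in 4T1 medium, Cxcl15 between them falls (-2.73), and crosses on the zero line mark genes with too few counts to test.

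The receptors of these ligands were nearly absent from the FRC libraries. Of 8 listed, Cxcr1, Cxcr2, Cxcr3, Cxcr4 and Ackr1 had no count. Cxcr6, the receptor of Cxcl16, was at 0.1 ± 0.0684, 0.145 ± 0.139 and 0.0545 ± 0.077 CPM. The G-CSF receptor gene Csf3r had 1 and 3 counts in 4T1 medium and 0 elsewhere. The 1 tested receptor was Ackr3, a scavenging receptor for Cxcl12 and Cxcl11, which rose from 11.7 ± 1.57 CPM in control to 25.3 ± 4.15 in 67NR medium (log2 1.10, SE 0.13) and 57.6 ± 3.14 in 4T1 medium (log2 2.29, SE 0.12). Of 8 listed proteases and sinks that act on the ligands, 4 were tested: 1 rose in 4T1 against control, 2 rose in 67NR against control, and 2 fell in 4T1 against 67NR. The matrix metalloproteinase gene Mmp2 was at 702 ± 26.8, 1128 ± 47.6 and 746 ± 12 CPM, higher in 67NR medium than in control (log2 0.68, edgeR adjusted p = 5.92e-06) and lower in 4T1 than in 67NR medium (log2 -0.60). Mmp9 had 4 and 1 counts in control, 33 and 26 in 67NR medium and 4 and 6 in 4T1 medium. It passed in the same comparisons (log2 3.14 and -2.19), though it is not among the genes of the deposited filtered table. Mmp9 met the filter on low counts used here through 67NR medium alone, so these calls were partly fixed by that filter. Of the Cxcl16 sheddases, Adam10 was at 228 ± 11.5, 219 ± 5.87 and 229 ± 14.1 CPM and passed in no comparison. Adam17 rose slightly in 4T1 against control (log2 0.25, SE 0.07, edgeR adjusted p = 0.0145), and no gene of that list was called without control replicate 1 or without 4T1 replicate 2. Dpp4, whose product trims CXCR3 ligands, was under 1 CPM in each medium.

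Most listed NF-kB and C/EBP genes, inhibitors among them, were higher in 4T1 medium. Whether they act on Cxcl1 or Cxcl5 here was not tested. Of 12 NF-kB and C/EBP factors, 12 were tested; 9 rose and 1 fell in 4T1 against control (median log2 0.65), and 10 rose and 1 fell in 4T1 against 67NR (median 0.59). Nfkbiz, which encodes IkB-zeta, was at 18.8 ± 1.31 CPM in control, 23.7 ± 0.758 in 67NR medium and 139 ± 17 in 4T1 medium (4T1 against control log2 2.89, SE 0.10, edgeR adjusted p = 1.8e-10). Cebpb rose from 25.8 ± 1.12 to 128 ± 10.4 CPM (log2 2.31, SE 0.08). Cebpd rose from 94.5 ± 8.3 to 362 ± 15.3 CPM (log2 1.94, SE 0.08). Tnfaip3, encoding the NF-kB inhibitor A20, fell from 192 ± 5.48 to 83.1 ± 11.2 CPM (log2 -1.21, SE 0.08). The genes that rose in 4T1 against control included the inhibitor genes Nfkbia (log2 1.16) and Nfkbie (log2 0.86). The NF-kB subunit genes ranged there from log2 0.06 (Nfkb1, which did not pass) to log2 1.46 (Relb). In 67NR against control 3 of these 12 rose and 2 fell (median -0.05), but 2 were called without 67NR replicate 1, 1 without 67NR replicate 2, and 3 without either control replicate. The 67NR rise of Nfkbiz (log2 0.34, edgeR adjusted p = 0.0326) was lost without any 1 of those 4 libraries (adjusted p 0.0682 to 0.245).

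Upstream receptors and adaptors rose in part. Of 14 tested, 8 rose and 2 fell in 4T1 against control, and 8 rose and 2 fell in 4T1 against 67NR. Il17ra, a chain of the interleukin-17 receptor, rose from 44.3 ± 3.02 to 144 ± 2.41 CPM in 4T1 medium (log2 1.69, SE 0.08). Its adaptor gene Traf3ip2 rose from 6.2 ± 0.907 to 18.4 ± 1.29 CPM (log2 1.59, SE 0.14). Il17rc, another chain of that receptor, fell from 76 ± 5.99 to 56.6 ± 2.57 CPM (log2 -0.42, SE 0.08). The other gene that fell in 4T1 against control was Ticam1 (log2 -0.38, SE 0.10). Il1r1, the interleukin-1 receptor, was at 38.8 ± 4.33 CPM in control, 61.7 ± 0.337 in 67NR medium and 154 ± 20.3 in 4T1 medium, and Cd14, a co-receptor of TLR4, rose from 1.36 ± 0.35 to 13.3 ± 0.836 CPM in 4T1 medium (log2 3.24, SE 0.21). The listed genes of cytokines upstream of NF-kB were at or near 0 at this depth. Of 6 listed and present in the table, 5 had no count and Il1a had 0 to 3 counts per library. In 67NR against control 3 of the 14 rose; 1 was called without 67NR replicate 1, control replicate 1 or control replicate 2, and 5 without either 4T1 replicate.

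Regulators that shorten or extend the life of chemokine mRNAs moved in both directions, as did tested genes as a whole. Of 11 tested, 3 rose and 2 fell in 4T1 against control, and 4 rose and 3 fell in 4T1 against 67NR. Over all tested genes, 19.9% rose and 19.2% fell in 4T1 against control. In 4T1 against 67NR 23.5% rose and 19.9% fell, so moves in both directions are not particular to this list. Zc3h12a, encoding the nuclease Regnase-1, which degrades inflammatory transcripts, rose from 8.95 ± 1.21 CPM in control to 49.2 ± 7.57 in 4T1 medium (log2 2.48, SE 0.13) and was at 8.99 ± 0.984 in 67NR medium. Arid5a, whose product opposes Regnase-1 on some transcripts, went from 7.14 ± 1.14 to 31.9 ± 2.66 CPM (log2 2.18, SE 0.13). Zfp36, encoding the decay factor tristetraprolin, was at 80.9 ± 8.14, 124 ± 0.172 and 198 ± 2.32 CPM and rose in each step. Without either control replicate or either 67NR replicate, 3 of the 11 were called in 4T1 against control, and without 67NR replicate 1, 2 were called in 67NR against control, where 3 had risen and 1 had fallen.

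Interferon signalling genes split between the media. Of 14 tested, 10 rose and 1 fell in 4T1 against control (median log2 0.51), 6 rose in 67NR against control (median 0.23), and 4 rose and 7 fell in 4T1 against 67NR (median -0.23). Jak2 and Socs3, which also serve the interleukin-6 family of cytokines, both rose in 4T1 medium. Jak2 went from 55.8 ± 1.72 to 421 ± 49.4 CPM (log2 2.91, SE 0.09). Socs3 went from 15.7 ± 1.93 to 217 ± 8.78 CPM (log2 3.78, SE 0.09). Irf7 was at 3.89 ± 0.284 CPM in control, 23.6 ± 1.4 in 67NR medium and 7.48 ± 2.8 in 4T1 medium. It rose in 67NR against control (log2 2.61, SE 0.20) and was lower in 4T1 than in 67NR medium (log2 -1.68, SE 0.17). Its rise in 4T1 against control was smaller (log2 0.93, SE 0.23). That call was lost without 4T1 replicate 1 (log2 0.50) and without control replicate 1 (log2 0.83). Irf1, a factor for Cxcl9, Cxcl10 and Cxcl11, was at 21.5 ± 0.96, 28.4 ± 0.589 and 27.7 ± 0.337 CPM. It rose against control in 67NR medium (log2 0.40, edgeR adjusted p = 0.00378) and in 4T1 medium (log2 0.36, edgeR adjusted p = 0.00524). The 4T1 call was lost without control replicate 2 (log2 0.32). For Irf1, 4T1 did not pass against 67NR (log2 -0.04, SE 0.08). Of 7 interferon genes listed, 6 had no count, and Ifnb1 had 3 and 1 counts in 67NR medium and 0 elsewhere.

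**Figure D3:**
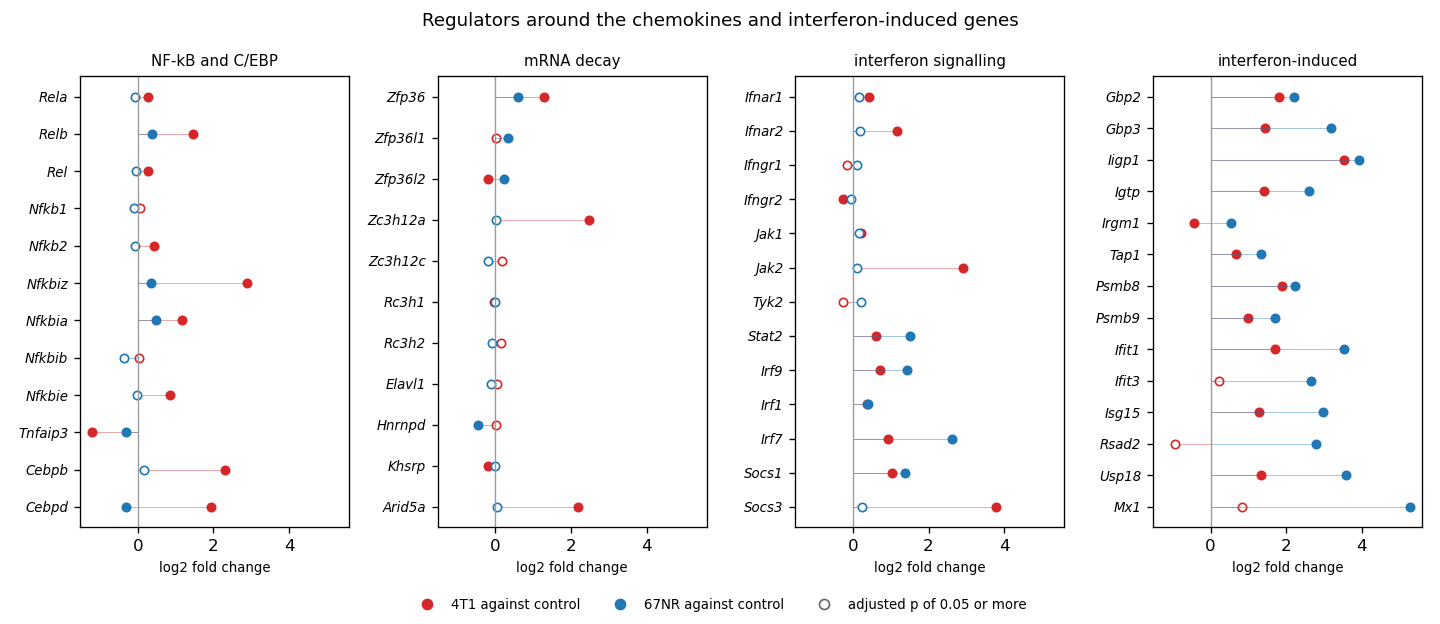
Log2 fold change against control of tested genes of 4 lists (1 gene of the interferon signalling list is not drawn), for 4T1 medium and for 67NR medium, with filled points for edgeR adjusted p under 0.05 and open points otherwise. Nfkbiz, Cebpb, Zc3h12a, Jak2 and Socs3 lie over 2 in 4T1 medium, whereas the genes of the interferon-induced panel lie further right in 67NR medium.

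The genes whose profile over the 6 libraries lay nearest to each tested member were ranked by the root mean square (RMS) difference of centred log2 CPM, among 13641 genes of mean CPM 1 or more. Nearest to Cxcl1 were Vegfc, a lymphangiogenic growth factor (RMS 0.0507), the kinase gene Sgk1 (0.0534) and the prostaglandin transporter gene Slco2a1 (0.0871). Vegfc was at 3.89, 4.2 and 20.5 CPM in control, 67NR and 4T1 medium. Nearest to Cxcl5 were the CC chemokine gene Ccl9 (RMS 0.186), Lce1g (0.359) and Nos2, the inducible nitric oxide synthase (0.396). Ccl9 went from 4.96 CPM in control and 7.34 in 67NR to 245 in 4T1 medium. Lce1g and Nos2 were at 0 CPM in control and 0.0243 in 67NR medium, against 6.58 and 3.43 in 4T1 medium, so they met the minimum mean through 4T1 medium alone and their RMS depends on the pseudocount of 0.1 CPM. Nearest to Cxcl16 were Nrip2 (0.116), Acvr1b (0.153) and Ly6e (0.155), which all stood between control and 4T1 in 67NR medium. These likenesses describe 6 libraries of 3 media.

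Defining FRC markers were partly present. Of 10 listed, 6 were tested, and Thy1, Ccl19 and Ccl21a had no count. In 4T1 against control 3 rose and 3 fell, among them Col1a1, which fell from 13817 to 6911 CPM, and Vcam1, which rose from 206 to 627 CPM. Of the other tested markers, Pdgfra rose from 33.7 to 128 CPM and Ltbr from 107 to 148. Pdpn fell from 124 to 105 CPM and Pdgfrb from 370 to 218. The summed level of the 10 was 14363 to 14956 CPM in control, 15798 to 16610 in 67NR medium and 7890 to 8384 in 4T1 medium. Most of this sum was Col1a1, so it does not describe the other markers. Markers of other cell types were at low levels. The 12 leukocyte markers, 5 of them at 0, summed to 7.06 to 8.47 CPM in control, 11.6 to 12.6 in 67NR and 5.14 to 5.39 in 4T1 medium, and the 8 epithelial and tumour cell markers, 3 of them at 0, to 2.01 to 2.39, 1.58 to 1.7 and 0.218 to 0.811 CPM. The 6 endothelial markers, 1 of them at 0, summed to 1.45 to 2.53, 2.73 to 3.15 and 0.654 to 0.946 CPM. In control and 67NR medium the 3 sums were carried mostly by Lyz2, Cdh1, and Kdr with Pecam1. In 4T1 medium Lyz2 was at 2.04 ± 0.202 CPM, Csf1r at 1.72 ± 0.0487 and Cdh1 at 0.23 ± 0.248. Other markers differed in direction. Cd68 was at 0.728 ± 0.442, 0.78 ± 0.208 and 1.19 ± 0.138 CPM and passed in no comparison. Fcer1g had 1 and 0 counts in control, 3 and 0 in 67NR medium and 2 and 8 in 4T1 medium. The part of other cell types in the chemokine levels was not tested. A bulk library cannot tell fewer cells that make a transcript from less of it per cell.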

How the data were processed

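Poly(A) RNA of 6 libraries, 2 per medium, was sequenced on a NextSeq500 after directional library preparation from 500 ng of RNA, per the labels' protocols. The deposited values are raw counts of reads, whole numbers with 1 row per symbol. Per the submitters' processing notes, Subread, DESeq2 1.32.0 and mm10 were used. The strand setting is not given in the sources used here. The deposited filtered table held the same counts for 14629 genes.

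Symbols of the unfiltered table were grouped by the medium in the labels. Genes were kept by edgeR's filterByExpr (edgeR 4.0.16, at least 10 counts and a total of 15), scaled by TMM and fitted in 1 quasi-likelihood model with 3 residual degrees of freedom. CPM are counts over the TMM-scaled total of tested genes. SE is the absolute log2 fold change over the square root of F. The fold against a group at 0 uses 3 counts over the group. Counting intervals are 95% exact binomial or Poisson. Per-kb levels use coding exons of GENCODE M21, matched by 53292 symbols. Profiles were compared at a pseudocount of 0.1 CPM.

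The 10 genes and the 15 gene lists were chosen with earlier results of these data known. Genes named from a list were taken from the 3 of highest level and the 3 with the largest called difference of 4T1 against 67NR. Receptors and factors set by name were added, and not all genes that this rule gave are named in the text. Zmynd15 and the neighbours within 200 kb were added from the annotation. Nfkbia, Nfkbie, Nfkb1, Relb, Gbp4, Gbp5, Il17rc, Ticam1, Pdpn, Pdgfra, Ltbr and a few tallied in counts of 5 or fewer were named after their values were seen. Alternatives were other scaling (DESeq2 1.42.0 size factors, library totals), other filters, a replicate block, omission of each library, fits of the groups compared, limma-voom (limma 3.58.1) and DESeq2's Wald test. Those for lists, list genes and neighbours were chosen after seeing the data. The code was tested on simulated data. The values of 1 gene of the interferon signalling list are not reported here by name.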

Additional observations from a re-analysis of the deposited data

Results flagged for a closer look

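Among the listed genes and neighbours, 6 were called in opposite directions in the tumour media against control, with the difference between the media tested by the fit of 4T1 against 67NR. The neighbour Cxcl15 fell in 4T1 medium and rose in 67NR medium, with a log2 fold change of 4T1 against 67NR of -3.15. Cebpd rose in 4T1 and fell in 67NR medium (4T1 against 67NR log2 2.26). Zfp36l2 fell in 4T1 and rose in 67NR medium (log2 -0.405), as did Irgm1 (log2 -0.961), Pdgfrb (log2 -1.21) and Lyz2 (log2 -2.13). The calls against control in 67NR medium were lost in some analyses that left out 1 control or 67NR library: for Cxcl15 (adjusted p 0.12 to 0.245) and Zfp36l2 (0.106 to 0.162) without any of the 4, for Cebpd without 67NR replicate 2 (0.107) or control replicate 2 (0.123), and for Lyz2 without control replicate 1 (0.053). The 4T1 call of Zfp36l2 was lost without any control or 67NR library (0.0678 to 0.123). Of the 10 chemokine and G-CSF genes, the 3 that were tested were not among these, and the other 7 were not tested. The groups of 2 libraries are too small to look for outlying libraries.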

How the results depend on the processing

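The 3 tested members (Cxcl1, Cxcl5 and Cxcl16) kept their direction and their calls in both comparisons of 4T1 medium under all 15 alternatives, with log2 fold changes in 4T1 against control of 2.40 to 2.49 for Cxcl1, 5.72 to 6.35 for Cxcl5 and 1.86 to 2.16 for Cxcl16. In 67NR against control, Cxcl16 stayed called (log2 0.86 to 1.22, highest edgeR adjusted p 0.0338) and Cxcl5 stayed uncalled. The number of members called there was 1, and 2 (Cxcl1 added) in the fit of the 2 groups alone, with a range of 1 to 2 when single libraries were left out. Genes called in 67NR against control numbered 4150, and 2227 to 5336 when single libraries were left out: 2227 and 2364 without 67NR replicates 1 and 2, and 2459 and 2406 without control replicates 1 and 2. The ranges were 4000 to 5881 around 5888 for 4T1 against control and 4704 to 6521 around 6531 for 4T1 against 67NR. Same-numbered libraries did not deviate together (correlations 0.0681, 0.00453 and -0.0392). With the replicate number as a block, 6057, 4382 and 6668 genes were called in 4T1 against control, 67NR against control and 4T1 against 67NR, with 3, 1 and 3 members. Of 1794 values of 120 log2 fold changes under alternatives, 72 lost their call, 3 gained one and none reversed. The depth limits Cxcl2, Cxcl3, Cxcl10 and Csf3: at 13 counts or fewer per group their differences could not be resolved. Where alternatives moved a value, the cause was not tested beyond what each left out.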
